A study of Mus musculus with 5 samples.

Results

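Mesenchymal progenitors of paralysed muscle were examined in hindlimb muscle of mouse fetuses that lack Cacna1s. Nuclei were chosen by their measured RNA. A nucleus was taken as mesenchymal when it held at least 1 UMI (unique molecular identifier, a counted RNA molecule) of Pdgfra and at least 3 UMIs of Col1a1, Col3a1 and Col6a3 together, less than 1.5% of its UMIs in the sarcomere and triad genes Ttn, Neb, Trdn and Ryr1, and no UMI of the tenocyte gene Tnmd or of the proliferation genes Mki67 and Top2a. The rule gave 598 of the 3228 nuclei of the Cacna1s KO library, or 18.53% (95% interval 17.2 to 19.9). In the WT E18.5 library it gave 883 of 4261 nuclei, or 20.7% (19.5 to 21.97). Over all 5 libraries of the series 21154 nuclei were kept, with 848 further members in the WT E14.5, 646 in the P5 and 64 in the adult library.

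WT mice were C57bl6n, and the stages were E14.5 and E18.5 before birth, P5 after it and the adult. KO fetuses were Cacna1s-/- in the same background and were sampled at E18.5. They carried the Cacna1s tm1.1(KOMP)Vlcg allele, in which a Velocigene cassette (ZEN-Ub1) replaced the coding region. Skin and bone were removed from the hindlimbs, 14 WT and 26 KO hindlimbs were pooled at E18.5, and PCM1-positive and PCM1-negative nuclei were sorted and mixed in equal volumes. RNA and open chromatin were then read from the same nuclei. The deletion is germline, so the mesenchymal cells carried it as well. Cacna1s encodes the pore subunit of Cav1.1, the calcium channel of excitation-contraction coupling, and fetuses without it do not move and die at birth. Each group was 1 library, so no difference below has a replicate check and no p-value is given. The ranges given with shares and folds are exact 95% intervals for counting error alone, and the intervals do not cover differences between fetuses, dissections or library preparations.

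The muscle interstitium holds PDGFRA-positive mesenchymal cells, also called fibro-adipogenic progenitors when they can form fat and scar. They make the collagens, microfibrils and basement membrane parts that surround the fibres. They also release factors such as HGF, FGFs, IGF1 and follistatin that act on muscle stem cells and fibres. In fascia and around tendons, related fibroblasts marked by Pi16 and Dpp4 are held to be a reserve population. Contraction loads this tissue, and genes of the AP-1, SRF and YAP pathways are known to respond to load in fibroblasts.

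The members of the KO library had deeper RNA and shallower chromatin than those of the WT. KO members held 4496163 UMIs in sum, with a median of 6581.5 a nucleus against 5228 in the WT. They held 1722599 peak counts in sum, with a median of 1643.5 against 4146. In 128 KO members, 21.4% of them, the peak counts were below 400. Mitochondrial UMIs made up 0.07% of the KO sum and 0.228% of the WT sum. Cacna1s itself had 0 UMIs in KO members and 8 in the whole KO library, against 21 and 2480 in the WT. Both sexes were present in both pools, with Xist at 1334 CPM (a gene's UMIs scaled to the same total in each sum) in KO and 1265 in WT members and Uty at 201 and 171. The KO and WT E18.5 libraries shared 23 cell barcodes, 2 of them among members.

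The share of mesenchymal nuclei was lower in the KO by a small amount. Among nuclei with less than 1.5% of UMIs in the 4 muscle genes it was 26.6% of 2247 in the KO (24.8 to 28.5) and 32.7% of 2698 in the WT (31.0 to 34.5). After every nucleus was thinned to 2000 UMIs the rule took 11.4% of KO and 13.8% of WT nuclei. These shares rest on the sort and on equal mixing of the sorted fractions, so they do not give cell numbers in the muscle. The same rule with a Tnmd UMI gave 43 KO and 140 WT nuclei, and with an Mki67 or Top2a UMI 346 and 345. Over all nuclei outside the members, Tnmd stood at 11.9 CPM in the KO and 92.5 in the WT. Whether the Tnmd limit left more tendon-like nuclei among KO members was not tested.

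The values that chose the nuclei are given as a description. Pdgfra stood at 435 CPM in KO and 433 in WT members. Col1a1 was at 717 and 1467 CPM, Col3a1 at 1977 and 2889, and Col6a3 at 671 and 849. The 4 muscle genes together stood at 1254 CPM in KO and 785 in WT members. The median nucleus held 21 UMIs of the 3 collagens in the KO and 24 in the WT, far above the limit of 3. Just inside that limit were 2 KO nuclei with 3 collagen UMIs, and just outside were 3 nuclei with 2. At the muscle limit, 17 KO members had 1.0 to 1.5% of their UMIs in the muscle genes, with a median depth of 15389 UMIs, and 9 nuclei left out had 1.5 to 2.0%, with a median of 15987. A single Pdgfra UMI carried 169 KO members.

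Open chromatin, which the rule did not read, could be set against the label. Within the KO library, 11 of 16 further mesenchymal marker genes had at least 1.5-fold more peak counts in members than in all other nuclei, none had fewer, and the median ratio was 2.04. Col5a2, a fibrillar collagen, stood at 3.21-fold (2.42 to 4.21), the collagen-binding proteoglycans Dcn and Lum at 3.25-fold and 3.81-fold, and the transcription factor Twist2 at 2.91-fold. The chromatin of 16 of 20 myonuclear genes was lower in members, with a median ratio of 0.389, and that of 7 of 9 genes of muscle stem cells and myoblasts likewise, with a median of 0.474. The chromatin of the nuclei thus set them apart from muscle nuclei. Genes of other cell types were set apart less on the median. Ratios were 1.013 for smooth muscle and pericytes, 0.996 for endothelial cells, 1.10 for tenocytes, 0.965 for adipocytes and 0.913 for macrophages. Farther from 1 were Schwann cells at 0.752 (2 of 6 genes lower, 1 higher) and cartilage and bone cells at 1.36 (6 genes, none called). The erythroid list had 1 gene, at 1.88, without a call. Muscle RNA was still present in members, and more of it in the KO. The 21 myonuclear marker genes summed to 1368 CPM in KO and 953 in WT members. In nuclei outside the members they summed to 8799 and 12245 CPM. Of KO members 65.9% held 3 or more of these UMIs, and of WT members, which had shallower RNA, 39.5%.

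The KO members were not all of a kind. Clustered alone, they fell into 8 groups, and 5 of these were not led by genes of the other cell types checked. A cluster was held to be led by another type when at least 3 of its 20 leading genes belonged to that type. Tenocyte genes were not part of this check, so a tendon-like cluster could not be set aside by it. Cluster 1 held 163 nuclei, 27.3% of members, and was led by the cadherins Cdh18 and Cdh8, by Fst, which encodes the myostatin inhibitor follistatin, and by the Wnt antagonist Dkk2. Cluster 2 (117 nuclei) was led by Hand2os1 and Slc35f3, cluster 3 (112 nuclei) by the netrin receptor gene Unc5d and the glutamate receptor gene Grm8, and cluster 4 (75 nuclei) by Cpa6, Dcc and Mkx, the last a transcription factor of tendon. Cluster 7 (23 nuclei) was led by Rgs6, Tenm2, Fgf1, Lepr and Hhip. These groups come from the same RNA that defines them, and chromatin at their leading genes was above that of the other members, with the interval clear of 1, for 1 of 7, 2 of 10, 1 of 16, 1 of 10 and 3 of 15 genes in clusters 1, 2, 3, 4 and 7.

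The other 3 clusters were led by genes of another cell type while passing the rule. Cluster 5 held 63 nuclei led by Neb, Ttn, Mybpc1, Trdn and Ryr1, with a median of 12837 UMIs and 28.5% of the peak counts of all KO members. Cluster 6 held 34 nuclei led by the fat cell genes Acsl1, Acvr1c, Plin1, Fabp4 and Pparg, and in it Pparg stood at 2009 CPM against 16.6 to 131 in the 7 other clusters. Cluster 8 held 11 nuclei led by the macrophage genes F13a1, Mrc1, Adgre1 and Ptprc. Chromatin was also higher in cluster 6 at 5 of 13 leading genes, with Pparg at 7.5-fold and Acvr1c at 6.7-fold, in cluster 5 at 11 of 16, and in cluster 8 at 0 of 9. The WT members held 2 such clusters, of 133 nuclei led by cartilage and joint genes (Col2a1, Acan, Runx2, Prg4) and of 49 led by muscle genes. No doublet caller was run, so a nucleus of cluster 5, 6 or 8 may be a mixture. Values without these clusters, over 490 KO and 701 WT nuclei, stand beside the results they touch and are called the reduced set here. That set was chosen after the data were seen.

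Among the same clusters, the genes that act on muscle were not spread evenly. Fst stood at 215 CPM in cluster 1 and at 17.1 to 98.5 elsewhere, and the Wnt agonist Rspo3 was also highest there, at 277 CPM. Fgf10, a growth factor of fat and limb mesenchyme, was highest in the fat-gene cluster 6, at 1078 CPM, and next highest in cluster 1, at 513. Slit2 was lowest in cluster 3, at 129 CPM, and highest in cluster 7, at 963, where its counting interval overlapped those of clusters 4, 5, 6 and 8. Igf1 was high throughout, between 552 and 1469 CPM. Mkx marked cluster 4 at 337 CPM, against 3.5 to 78.7 in the others.

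**Figure D1:**
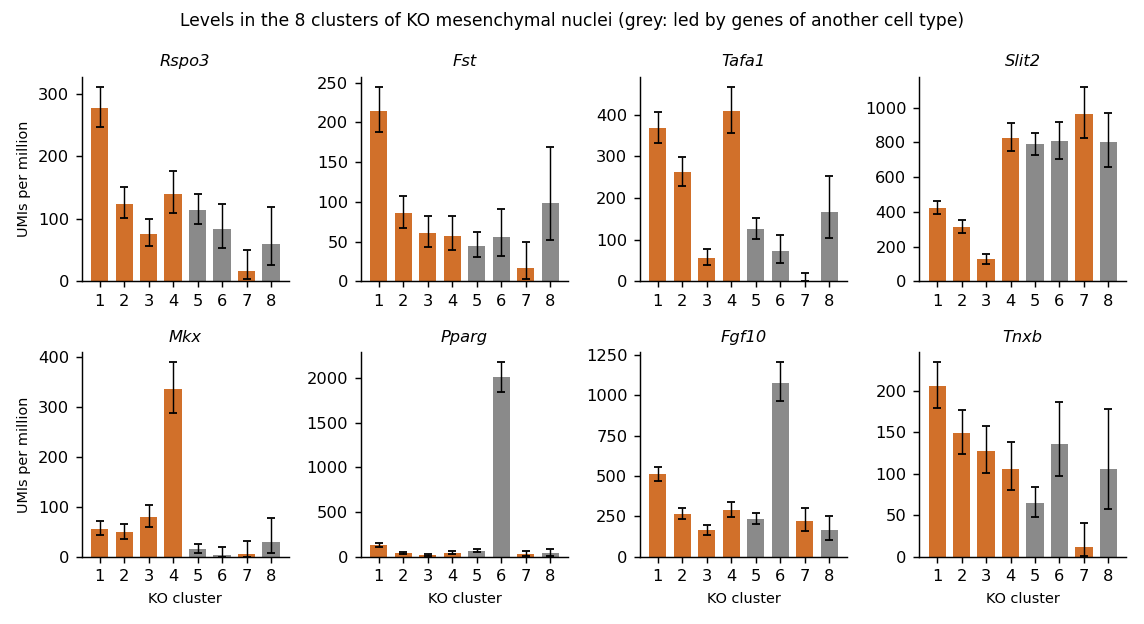
Levels of 8 genes (CPM, with exact 95% counting intervals) in the 8 clusters of KO mesenchymal nuclei; grey bars are clusters 5, 6 and 8, which are led by genes of another cell type. Fst and Rspo3 are highest in cluster 1, Mkx in cluster 4, Pparg and Fgf10 in cluster 6 and Slit2 in cluster 7.

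RNA of the members was then summed in each library and compared, KO against WT E18.5. A gene was called higher or lower when the ratio of its CPM was at least 1.5-fold with its interval clear of 1, over genes that had 50 UMIs or more when both sums were added. Of 11197 genes tested, 1166 were called higher in the KO (10.4%) and 1664 lower (14.9%), and the median log2 ratio was -0.09. Centred on that median, the split was 1457 higher and 1269 lower. Centred among genes of like length it was 1378 and 1111, and in the reduced set 1014 and 1517, with 769 and 1164 genes shared with the full set. Genes called higher were long, with a median of 80.9 kb, and those called lower short, with 17.8 kb, against 31.3 kb for all. Of genes of 94.3 kb or more, 23.5% were called higher and 8.31% lower. Of genes up to 11.8 kb these shares were 3.84% and 26.3%. Endothelial nuclei of the same libraries (151 KO and 125 WT, with at least 3 UMIs of Pecam1, Cdh5, Flt1 and Emcn together and no Pdgfra UMI) moved the same way on the median, with log2 ratios of 0.49 for the genes called higher and -0.44 for those called lower. The part of gene length and of differences between whole libraries in the calls was not tested, so the endothelial level is given beside some of the leading genes.

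Among genes with at least 100 UMIs and a higher level in KO members than in the other KO nuclei, Gm and Rik genes left out, the highest ratio was that of Tafa1. This gene (ENSMUSG00000059187, chr6:96113154-96657198, plus strand, GRCm38), which encodes a secreted chemokine-like protein, stood at 224 CPM in KO and 16.4 CPM in WT members. The ratio was 13.7 (10.9 to 17.3), and 19.9 in the reduced set. Thinned to 2000 UMIs, 12.9% of KO members held a Tafa1 UMI against 1.86% in the WT, and unthinned 18.2% against 2.72%. In endothelial nuclei the thinned shares were 0.667% and 0.826%, so the level in KO members was above background. Tafa1 was also at 225 CPM in KO and 39.6 in WT nuclei that passed the rule but for a Tnmd UMI. Within KO members it ran from 0 UMIs in cluster 7, the smallest of the 5, to 408 CPM in cluster 4.

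Slit2 (ENSMUSG00000031558, chr5:47983138-48307733, plus strand) encodes a secreted guidance protein that binds Robo receptors. It stood at 528 CPM in KO and 101 in WT members, a 5.23-fold difference (4.76 to 5.77) that was 4.18-fold in the reduced set. Endothelial nuclei held 226 and 135 CPM. Thinned shares were 23.5% of KO and 8.96% of WT members. Among endothelial nuclei they were 17.3% and 9.09%, a difference in the same direction at a lower level in the KO.

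The other 13 of these 15 genes are given by role, and all 15 were also called higher in the reduced set. Adhesion and synapse-organising genes were Cntn5 at 126 against 18.1 CPM, Cdh18 at 141 against 24.5, Lrrtm4 at 162 against 30.8 and Lrfn5 at 97.9 against 18.7. Potassium channel genes were Kcnh7 at 31.1 against 2.53 CPM, Kcnd3 at 40.0 against 7.01, and the channel-interacting protein gene Kcnip1 at 21.6 against 4.09. Receptor genes were Sorcs3 at 133 against 16.7 CPM, Lrp1b at 117 against 22.8 and the prolactin receptor gene Prlr at 76.5 against 14.0. Hs3st4, a heparan sulfate sulfotransferase, stood at 20.5 against 1.75 CPM, the long noncoding RNA Rmst at 53.8 against 7.59, and Nebl, an actin-binding relative of nebulin, at 25.8 against 2.92. Of these 13 genes, 4 were not higher in endothelial nuclei. Lrrtm4 stood there at 3.9 CPM in KO and 11.5 in WT, Lrp1b at 3.25 and 30.9, Kcnip1 at 0.65 and 2.29, and Lrfn5 at 19.5 and 20.6. The endothelial levels of Kcnip1 and Lrrtm4 rest on few UMIs and do not show whether the libraries differ. Nebl was at 134 against 6.87 CPM in endothelial nuclei, Rmst at 104 against 3.44 and Sorcs3 at 64.3 against 4.58, so that Nebl and Rmst were higher in KO endothelial nuclei than in KO members. A single nucleus held 30.2% of the Nebl UMIs and 25.7% of the Kcnh7 UMIs of KO members.

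**Figure D2:**
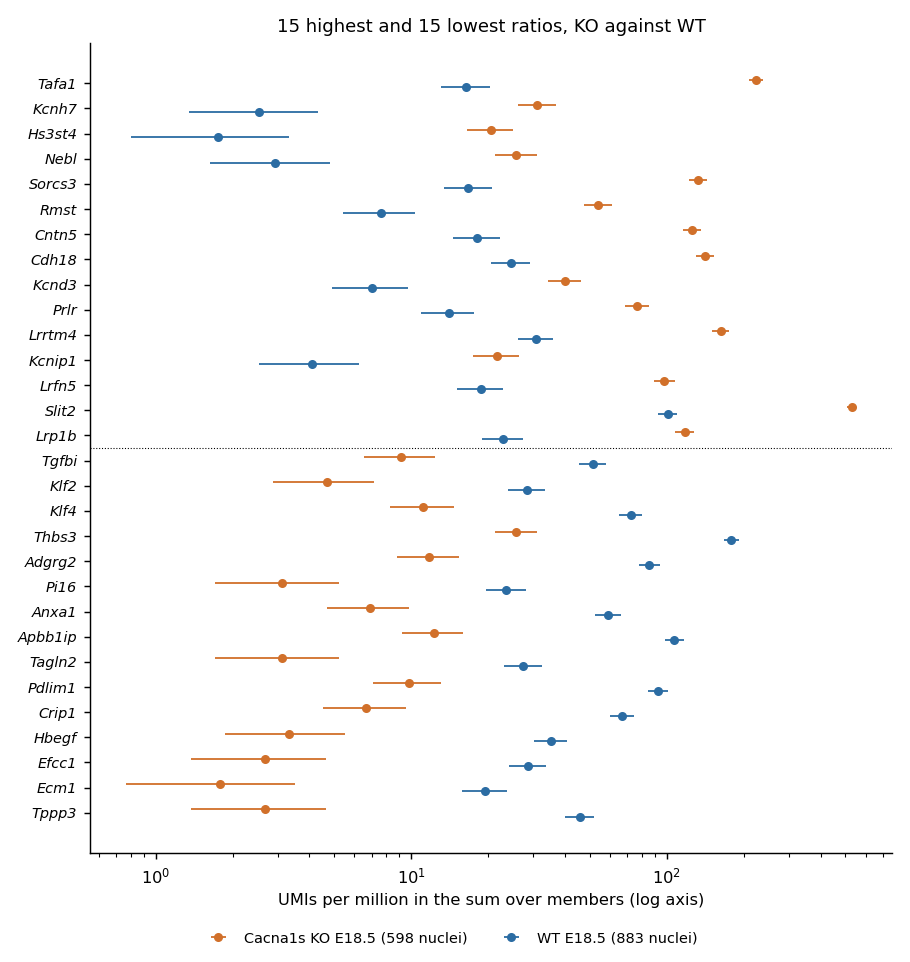
Levels (CPM, log axis, with exact 95% counting intervals) of the named genes at both ends of the ratio (15 each) in mesenchymal nuclei, KO in orange and WT E18.5 in blue. The intervals of the 2 libraries do not meet for any of the 30 genes, from Tafa1 (224 against 16.4 CPM) to Tppp3 (2.67 against 45.6 CPM).

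Among genes with at least 100 UMIs and a higher level in WT members than in the other WT nuclei, chosen in the same way, the lowest ratio was that of Tppp3 (ENSMUSG00000014846, chr8:105467493-105471526, minus strand), a tubulin-binding protein gene that marks tendon sheath and paratenon cells. It stood at 2.67 CPM in KO and 45.6 in WT members. It was 17.1-fold lower (9.59 to 33.5), and 9.61-fold in the reduced set. Endothelial nuclei held 1.3 and 17.2 CPM. Pi16, a marker of the adventitial fibroblast reserve, stood at 3.11 against 23.6 CPM and was 7.57-fold lower (4.34 to 14.3). Thbs3, a matrix thrombospondin, stood at 25.8 against 179 CPM, 6.94-fold lower (5.71 to 8.49), and Tgfbi, a TGF-beta-induced matrix protein, at 9.12 against 51.2, a fold of 5.62 that was 1.65 in the reduced set.

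Apbb1ip encodes the RIAM adaptor, which links Rap1 to talin and so to integrin activation. It stood at 12.2 CPM in KO and 107 in WT members, 8.76-fold lower (6.63 to 11.8) and 15.8-fold lower in the reduced set, while endothelial nuclei held 19.5 and 18.3 CPM. The actin-associated genes Pdlim1, at 9.79 against 92.5 CPM, and Tagln2, at 3.11 against 27.5, were 9.45-fold and 8.82-fold lower. Both were also lower in endothelial nuclei, Pdlim1 at 48.1 against 198 CPM and Tagln2 at 21.4 against 75.6. Crip1 stood at 6.67 against 67.0 CPM, with 14.3 and 97.4 in endothelial nuclei. Klf4 and Klf2, transcription factors induced by stimuli, were 6.50-fold and 6.09-fold lower. Ecm1, Efcc1, Anxa1 and Adgrg2 were lower by 10.9, 10.7, 8.56 and 7.25-fold. Hbegf, an EGF-family ligand gene, was 10.6-fold lower in all members but lay 2.08-fold higher in the reduced set without being called. It is among the leading genes of the WT cluster led by cartilage and joint genes. The 14 others remained called lower there.

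Secreted factors that act on muscle formed the list with the largest share called higher among those with 10 or more tested members. Of 41 measured genes 18 were called higher and 7 lower, and the median log2 ratio was 0.45 against -0.09 over all genes. In the reduced set 18 of 37 were higher and 5 lower, with a median of 0.58. Hgf (ENSMUSG00000028864, chr5:16553495-16620152, plus strand), which wakes muscle stem cells and guides their migration, stood at 187 CPM in KO and 77.7 in WT members, a 2.40-fold difference (2.13 to 2.72). The reduced set gave 2.41-fold. Peak counts in and around Hgf were 1.95-fold higher (1.26 to 2.97). A thinned UMI was found in 24.8% of KO and 12.2% of WT members, and in 6.67% and 1.65% of endothelial nuclei.

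Of the FGF genes, 3 were called higher and 1 lower. Fgf10 stood at 353 against 151 CPM, or 2.34-fold (2.15 to 2.56), Fgf7 at 264 against 148, or 1.78-fold (1.62 to 1.95), and Fgf2 at 79.6 against 48.3, or 1.65-fold (1.40 to 1.95). Chromatin at Fgf7 and Fgf2 was 1.84-fold higher in each. Fgf18, an FGF of cartilage and bone, was 1.61-fold lower, at 18.2 against 29.4 CPM. Fst was higher at 97.4 against 55.3 CPM, or 1.76-fold (1.51 to 2.05). Nrg1, the neuregulin read by ErbB receptors on muscle and Schwann cells, stood at 1549 against 941 CPM, or 1.65-fold (1.59 to 1.71).

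Genes of a chemokine, of heparin-binding factors and of vessel factors were higher too. Cxcl12, which attracts CXCR4-bearing progenitors, stood at 98.5 against 38.8 CPM, or 2.54-fold (2.15 to 3.02). Endothelial Cxcl12 went the other way, at 39.6 against 57.3 CPM. The heparin-binding growth factors Mdk and Ptn were 2.50-fold and 1.51-fold higher, with chromatin 2.04-fold and 1.92-fold higher, although Ptn in the reduced set was not called. The vessel factors Angpt1, Angpt2, Pdgfd and Vegfd were 1.83, 2.36, 1.95 and 1.64-fold higher, and Vegfd was not called in the reduced set, at 1.16-fold. Igf1, at 1139 against 862 CPM, and Vegfa, at 137 against 100.1, were 1.32-fold (1.27 to 1.38) and 1.37-fold higher, below the 1.5-fold needed for a call.

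The 7 genes called lower in this list included the BMP ligand genes Bmp2, Bmp3 and Bmp4. Bmp4 stood at 19.1 against 52.4 CPM, 2.74-fold lower (2.14 to 3.53), and Bmp2 at 4.45 against 13.2, 2.98-fold lower (1.79 to 5.18), with chromatin at Bmp2 2.10-fold lower. Bmp3 was 1.55-fold lower, Bmp1, a procollagen protease, 1.74-fold, Angptl2 2.41-fold, and the follistatin-like gene Fstl1, at 471 against 834 CPM, 1.77-fold. Bmp5 was higher, at 1.53-fold.

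**Figure D3:**
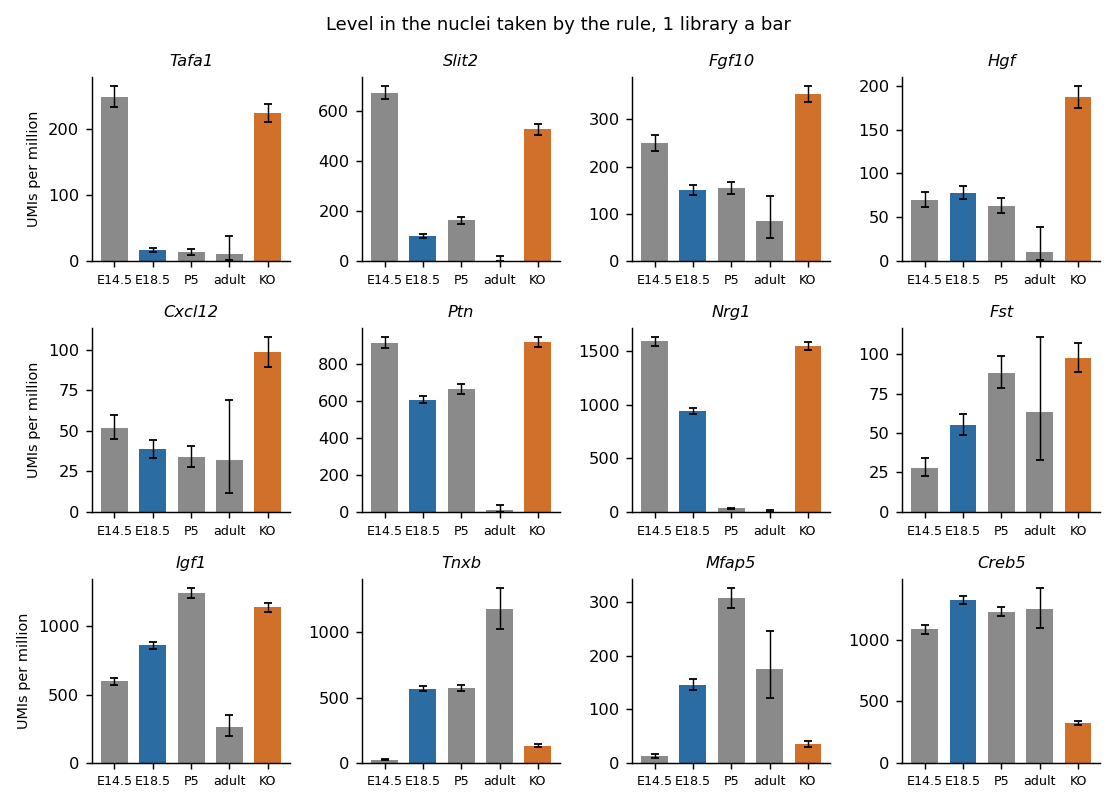
Levels (CPM, with exact 95% counting intervals) of 12 genes in mesenchymal nuclei of the KO library and of the 4 WT libraries, by stage. Tafa1, Slit2, Ptn and Nrg1 stand in the KO nearer to their level at E14.5 than at any other stage, Tnxb and Mfap5 lie between WT E14.5 and WT E18.5, and Creb5 is lower in the KO (325 CPM) than in any WT library (1086 to 1328).

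Levels in the other WT libraries put these values beside normal development. These levels are set side by side without a test, and in the adult, with 64 members, a gene at 0 may lie as high as 15.9 CPM (3 UMIs). Tafa1 stood at 248 CPM at E14.5 and 16.4 at E18.5, then at 13.3 in the P5 library and 10.6 in the adult, against 224 in the KO. Slit2, in the same order, stood at 675, 101, 163 and 0 CPM, against 528. Both KO levels lay nearer to the level at E14.5 than to that of any other WT library. Nrg1 stood at 1591, 941, 31.8 and 0 CPM against 1549 in the KO, and Ptn at 915, 607, 663 and 10.6 against 917.

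Not every growth factor followed that order. Hgf stood at 69.8, 77.7, 62.5 and 10.6 CPM from E14.5 to the adult, so that the 187 CPM of the KO lay above every WT library. The same held for Cxcl12 (51.9, 38.8, 33.8 and 31.8, against 98.5), for Fgf10 (250, 151, 155 and 84.8, against 353) and for the Wnt inhibitor gene Sfrp1 (22.8, 16.0, 13.3 and 15.9, against 71.6). Igf1 instead stood at 597, 862, 1245 and 265 CPM, against 1139 in the KO. Esr1, the oestrogen receptor gene, stood at 41.3, 63.9, 599 and 625, against 147.

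Receptor genes were higher in 9 of 32 cases and lower in none, with a median log2 ratio of 0.35. Over all genes 10.4% were called higher and 14.9% lower. In the reduced set 10 of 27 receptor genes were higher and 1 was lower, with a median of 0.29. The list's median gene length was 92.6 kb. Of all genes from 43.1 to 94.3 kb 10.1% were called higher, and of longer ones 23.5%. The neurotrophin receptor genes Ngfr and Ntrk2 stood at 41.4 against 10.7 CPM, or 3.86-fold (2.85 to 5.32), and at 227 against 113, or 2.01-fold (1.82 to 2.23). The endothelin receptor genes Ednrb and Ednra were 7.61-fold and 2.01-fold higher. Nuclear receptor genes followed, with Thrb (thyroid hormone) at 2.54-fold, Esr1 at 2.30-fold and Nr3c2 (mineralocorticoid) at 1.78-fold. Fgfr4 was 2.01-fold higher on 11.3 against 5.65 CPM and had too few UMIs for the test in the reduced set. Ghr, Egfr and Igf1r lay between 1.19-fold and 1.38-fold, without a call.

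**Figure D4:**
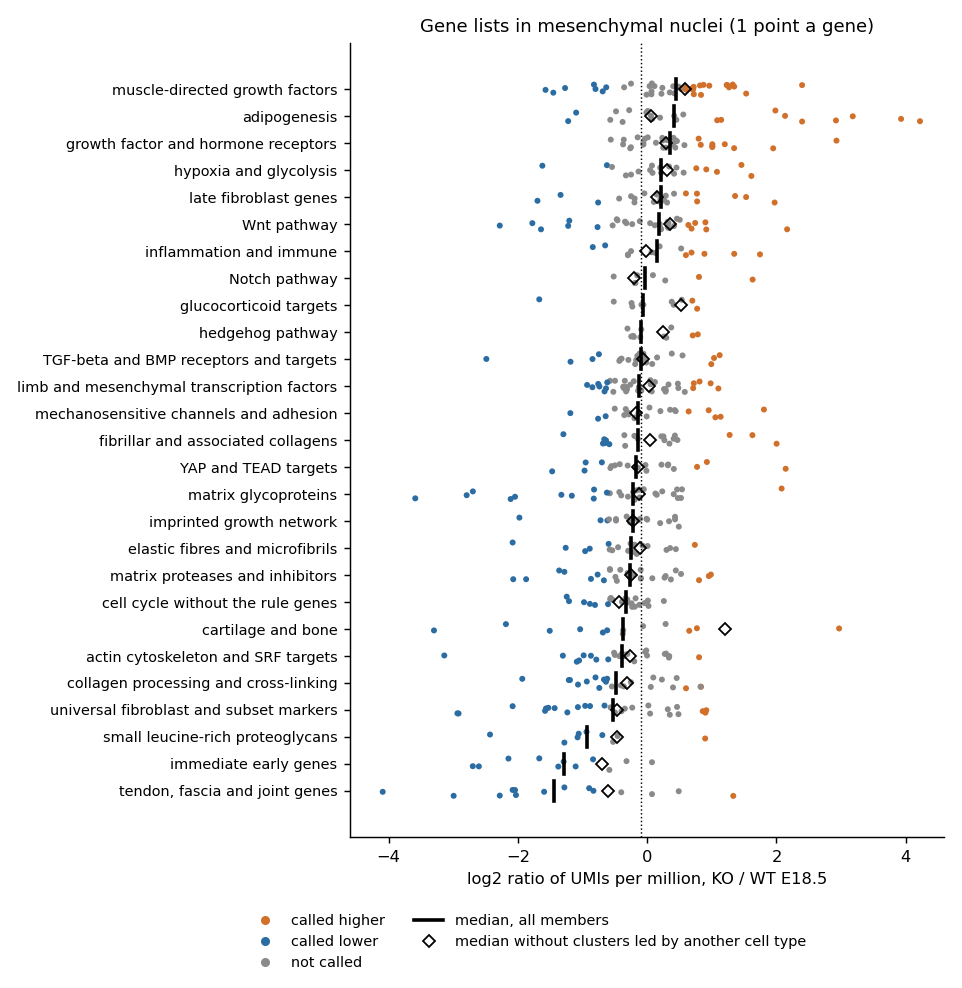
Log2 ratio of KO to WT E18.5 CPM for each tested gene of 27 lists, 1 point a gene; bars are list medians, diamonds the medians without the clusters led by another cell type, and the dotted line is the median of all genes (-0.09). Growth factors (0.45), adipogenesis (0.42) and receptors (0.35) have the highest medians and tendon, fascia and joint genes (-1.44) and immediate early genes (-1.29) the lowest; Col4a6 lies beyond the axis.

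Markers of fibroblast subsets were lower as a list, with 12 of 26 called lower, 3 higher and a median log2 ratio of -0.53. Besides Pi16, those called lower included Dpp4 at 31.8 against 94.3 CPM, 2.96-fold lower (2.45 to 3.60), Ly6a (Sca-1) at 1.78 against 13.6, 7.66-fold lower, and Clec3b at 37.1 against 107, 2.89-fold lower. Mfap5 (ENSMUSG00000030116, chr6:122505845-122529290, plus strand), a microfibril protein, stood at 34.5 against 146 CPM, 4.24-fold lower (3.56 to 5.07). The matrix gene Fndc1 stood at 193 against 578 and the semaphorin gene Sema3c at 488 against 1027, 2.99-fold and 2.10-fold lower. Cd34 and Cd248, surface proteins of stromal progenitors, were 1.85-fold and 2.36-fold lower. All of these were also called lower in the reduced set. Pi16 and Dpp4 were highest in WT cluster 3, of 148 nuclei, at 87.3 and 289 CPM. They reached at most 18.7 and 99.0 CPM in the other WT clusters, and 11.4 and 85.5 in any KO cluster. The folds of Pi16 and Dpp4 over all members thus rest in large part on that WT cluster.

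The subset markers called higher were Rspo3 at 144 against 77.3 CPM, or 1.87-fold (1.65 to 2.12), with chromatin 1.81-fold higher, Vcam1 at 1.88-fold and the GDNF receptor gene Gfra1 at 1.81-fold. Of general mesenchymal regulators, Tcf7l2, a marker of muscle connective tissue, stood at 1309 against 1269 CPM and Tcf4 at 1636 against 2080, without a call. Twist2 was 1.75-fold higher. Of the 16 mesenchymal marker genes outside the rule, Twist2 was the only one higher and 5 were lower, with a median log2 ratio of -0.37. The reduced set gave 2 lower and 0 higher, with a median of -0.29. Levels of 3 of these subset markers at the other WT stages are given for comparison. Mfap5 stood at 12.97, 146, 308 and 175 CPM from E14.5 to the adult and Pi16 at 2.44, 23.6, 32.1 and 148, so the KO levels of 34.5 and 3.11 lay nearer to E14.5 than to E18.5. Sema3c stood at 430, 1027, 2085 and 551 CPM, against 488.

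Genes of tendon, fascia and joints had a median of -1.44, the lowest of the 27 lists plotted, with 10 of 14 called lower and 1 higher. The reduced set gave 5 of 10 lower, 1 higher and a median of -0.61. Cartilage and bone marker genes moved with this list: they summed to 34.0 CPM in KO and 87.2 in WT members, 8 KO and 36 WT nuclei held 3 or more of their UMIs, and Snorc and Bglap were at 0 in the KO, Bglap also in the WT. Prg4 (lubricin), Wif1 and Erg were 7.98, 4.86 and 1.86-fold lower in all members and had too few UMIs for the test without the clusters led by another type. Creb5 (ENSMUSG00000053007, chr6:53287270-53700376, plus strand), a transcription factor of joint and superficial fibroblasts, did not depend on them: it stood at 325 against 1328 CPM, 4.09-fold lower (3.86 to 4.33), and 3.59-fold lower in the reduced set. A Creb5 UMI was found in 32.4% of KO and 72.5% of WT members after thinning, and in 50% and 84.9% before, while endothelial nuclei stood at 19.3% and 29.8% after thinning. In the other WT libraries Creb5 stood at 1086 (E14.5), 1229 (P5) and 1256 CPM (adult).

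Mkx was the gene of this list that was higher, at 77.0 against 30.6 CPM, or 2.52-fold (2.08 to 3.06), and 10.9-fold in the reduced set. That set leaves out WT cluster 4, which held 110 WT Mkx UMIs at 143 CPM, and keeps KO cluster 4, which held 175 at 337 CPM. In nuclei with a Tnmd UMI, which the rule leaves out, it stood at 1050 against 428 CPM. Fmod, a tendon proteoglycan gene, was 2.43-fold lower on 4.00 against 9.74 CPM. Thbs4, a thrombospondin of tendon and muscle ends, was 4.13-fold lower and 1.96-fold in the reduced set.

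Of 29 matrix glycoprotein genes 10 were lower, 1 was higher and 18 were not called, with a median of -0.22. Tnxb, the tenascin of loose connective tissue, stood at 131 against 568 CPM, 4.33-fold lower (3.96 to 4.74), and 4.32-fold in the reduced set. In the WT it stood at 23.9 CPM at E14.5, 572 at P5 and 1176 in the adult. Tnc, the tenascin of loaded and growing tissue, stood at 18.2 against 118, 6.49-fold lower (5.15 to 8.28) and 3.44-fold in the reduced set. Fibronectin (Fn1) was 2.24-fold lower at 306 against 686 CPM, and endothelial nuclei held 363 and 348. Sparc and Thbs1 were 1.77-fold lower each, and Spon2 12.0-fold on 0.89 against 10.7 CPM. Spon1 was the gene called higher, at 85.6 against 20.3 CPM, or 4.23-fold (3.40 to 5.30). Lama2 (0.860), Postn (0.918) and Vcan (1.11), which stood above 1600 CPM in both libraries, had ratios without a call.

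Fibrillar and associated collagens had no direction that held as a list. Of 23 collagen genes outside the rule 7 were lower and 4 higher, with a median of -0.14 against -0.09 over all genes. Centred on the median of all genes, 2 were lower and 4 higher. Col1a2 stood at 1512 against 2270 CPM, 1.5-fold lower (1.46 to 1.55), Col14a1 at 667 against 1070, 1.61-fold, and Col6a1 and Col6a2 were 1.59-fold and 1.56-fold lower. In the reduced set only Col5a3, at 2.29-fold, was still called lower and 7 of 21 were higher. Col23a1, a transmembrane collagen, was 4.01-fold higher (3.40 to 4.74), Col4a5 3.09-fold and Col26a1 2.42-fold. Col4a6 had 51 UMIs in KO and 1 in WT members, a ratio of 58.2 (9.99 to 2350).

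Genes that process and cross-link collagen were lower in 10 of 22 cases, with 2 higher and a median of -0.48, and in the reduced set 8 of 21 lower, 3 higher and -0.31. P4ha3, a prolyl hydroxylase, stood at 19.6 against 74.8 CPM, 3.82-fold lower (3.02 to 4.87). The lysyl oxidase relatives Loxl1 and Loxl2 were 2.32-fold and 2.29-fold lower, but Lox itself was 1.78-fold higher (1.48 to 2.16), at 63.8 against 35.8 CPM. The procollagen proteases Adamts14, Adamts2 and Bmp1 were 2.10, 1.59 and 1.74-fold lower and Adamts3 was 1.52-fold higher. The collagen chaperone gene Serpinh1 was 1.56-fold lower and was not called in the reduced set.

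Of 20 genes of elastic fibres and microfibrils 5 were lower, Mfap5 among them, 1 was higher and 14 were not called, with a median of -0.24. Fibrillin-1 (Fbn1) stood at 423 against 823 CPM, 1.95-fold lower (1.84 to 2.06), whereas Fbn2, the fetal fibrillin, was at 1483 against 1478. Fbn1 in the WT stood at 269 CPM at E14.5, 1308 at P5 and 1537 in the adult. The TGF-beta binding proteins Ltbp4 and Ltbp1 went apart, 2.40-fold lower and 1.67-fold higher. Of 9 small leucine-rich proteoglycan genes 6 were lower, among them Lum (2.09-fold) and Bgn (2.11-fold), and Ogn was higher at 277 against 149 CPM. In the reduced set 1 of 7 was lower, Lum. Of 27 genes of matrix proteases and inhibitors 7 were lower and 3 higher, with a median of -0.27. Timp3 was 2.43-fold and Timp2 1.83-fold lower, and Adamts9, Adamts17 and Pappa were 1.94, 1.98 and 1.74-fold higher.

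Actin and SRF target genes were lower in 8 of 24 cases, with 1 higher and a median of -0.39. The integrin gene Itga5, the fibronectin receptor subunit, stood at 35.1 against 86.9 CPM, 2.47-fold lower (2.06 to 2.98). Zyx, a focal adhesion protein gene, was 1.98-fold lower, Tpm4 1.83-fold and Actb 1.52-fold, and Pdlim5 was 1.74-fold higher. Endothelial levels were lower in the KO as well, at 65.6 against 179 CPM for Itga5 and 161 against 259 for Actb. Of 20 YAP and TEAD targets 4 were lower and 3 higher, with a median of -0.17. These shares lay near the 14.9% lower and 10.4% higher of all genes. Ccn1 and Ccn2 were 1.94-fold and 2.77-fold lower, Ccn2 on 2.67 against 7.4 CPM, and Vgll3 was 1.90-fold higher. In the reduced set 3 of 15 targets were lower and 0 higher, so Vgll3 had no higher call there.

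Adhesion genes split. Of 23 channel and adhesion genes 5 were higher and 3 lower, beside 10.4% higher and 14.9% lower over all genes. The genes of this list were long, with a median of 148.9 kb. Of all genes of 94.3 kb or more, 23.5% were called higher and 8.31% lower. Cdh11, the cadherin of mesenchyme, stood at 1197 against 619 CPM, or 1.93-fold (1.85 to 2.02), and Pcdh9 at 2550 against 1160, or 2.20-fold (2.13 to 2.27). The integrin genes Itga8 and Itga4 were 3.50-fold and 2.08-fold higher. Cd44, the hyaluronan receptor, stood at 215 against 491 CPM, 2.28-fold lower (2.12 to 2.46), and the stretch-gated channel gene Piezo1 at 61.6 against 104, 1.69-fold lower, with 164 and 231 in endothelial nuclei.

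Immediate early genes, which cells switch on within minutes of a stimulus, were lower in 8 of 11 cases and higher in none, with a median of -1.29. The reduced set gave 5 of 9 lower and -0.70. Jun, a subunit of AP-1, stood at 11.1 against 49.3 CPM, 4.43-fold lower (3.26 to 6.13), and Klf4 at 11.1 against 72.2, 6.50-fold (4.83 to 8.91). Nr4a1, Jund and Dusp1 were 2.45, 2.60 and 3.18-fold lower. Egr1 did not share this, at 10.5 against 9.93 CPM. The same genes were lower in endothelial nuclei, with Jun at 20.8 against 42.4 CPM, Klf4 at 28.6 against 60.7, Klf2 at 22.7 against 43.5 and Nr4a1 at 24.7 against 43.5. Dissection and nucleus isolation also induce such genes, and their part was not tested.

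Adipogenesis genes were higher in 9 of 23 cases and lower in 2, with a median of 0.42 that was 0.06 in the reduced set. Fat cell marker genes moved with them, at 59.2 CPM in KO and 7.79 in WT members, with 3 or more UMIs in 7 KO and 2 WT nuclei. Pparg, the regulator of fat cell formation, stood at 189 against 43.0 CPM, or 4.39-fold (3.78 to 5.11), and at 1.93-fold in the reduced set. Plin1, Fabp4 and Acsl1, which handle stored lipid, were 18.7, 15.2 and 9.07-fold higher, and Acsl1 was at 1.16-fold in the reduced set, without a call. Dgat2 and Ppargc1a held there, at 5.06-fold and 6.44-fold. Ebf1 and Ebf2, early factors of the lineage, were near equal at 1.04-fold and 1.05-fold.

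Wnt pathway genes were called in both directions, 6 higher and 6 lower of 32, beside 10.4% higher and 14.9% lower over all genes. The even split did not hold in the reduced set, where 8 of 26 were higher and 3 lower. The median log2 ratio was 0.36 there and 0.18 in all members. Sfrp1 stood at 71.6 against 16.0 CPM, or 4.49-fold (3.51 to 5.79), with chromatin 1.79-fold higher and 13.4% against 4.42% of members with a UMI after thinning (among endothelial nuclei 0.667% of 150, and 0 of 121, which allows up to 3.00%). Dkk2 was 1.61-fold higher at 513 against 319 CPM, whereas Dkk3, Sfrp4, Wnt2 and Rspo2 were 2.31, 3.12, 3.43 and 1.70-fold lower. The hedgehog targets Ptch1 and Hhip were 1.63-fold and 1.72-fold higher, 2 of 11 on that list. Of 25 TGF-beta and BMP genes 3 were higher and 4 lower, shares near the 10.4% and 14.9% of all genes. Bmpr1b was 1.99-fold higher and the BMP target Id3 2.28-fold lower. In the Notch list the coactivator gene Maml3 was 3.10-fold higher (2.80 to 3.43) and Notch3 1.74-fold, 2 of 8.

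Of 43 transcription factor genes of limb mesenchyme 5 were higher and 7 lower, shares near the 10.4% and 14.9% of all genes, and centred on the median of all genes 6 were higher and 3 lower. Meis2 stood at 799 against 404 CPM, or 1.97-fold (1.87 to 2.09), and Maf at 173 against 105. The limb patterning genes Tbx15, Shox2 and Tbx4 were 1.67, 1.69 and 1.80-fold lower, the last 2 without a call in the reduced set. Nfia and Nfib, broad regulators of these cells, were at 1.05-fold and 1.21-fold. Cell cycle genes outside the rule were lower in 6 of 23 cases, among them Ccnd2 at 61.2 against 113 CPM and Mcm2 at 5.34 against 12.7, and none was higher. The rule leaves out nuclei with an Mki67 or Top2a UMI, which were 346 in the KO and 345 in the WT.

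Smaller lists gave single genes, and their counts stand beside 10.4% called higher and 14.9% called lower over all genes. In the list of hypoxia and glycolysis 5 of 20 were higher and 2 lower, with Bnip3 at 64.3 against 21.0 CPM, or 3.06-fold (2.44 to 3.85), and Egln3 2.75-fold higher, and endothelial Bnip3 stood at 49.4 against 10.3. Late fibroblast genes were higher in 6 and lower in 3 of 22 cases, with Kcnb2 at 2.89-fold higher, Zbtb16 at 247 against 144 CPM, and the dermatopontin gene Dpt 2.53-fold lower. Of the 14 genes of inflammation, C2, a complement protein, was 3.35-fold and Il1r1 1.85-fold higher, 5 in all, and 2 were lower. Macrophage marker genes stood at 229 CPM in KO and 94.6 in WT members, with 3 or more UMIs in 13 and 8 nuclei. Of 11 glucocorticoid targets 2 were higher and 1 lower. Of 19 imprinted growth genes 3 were lower, Ndn, H19 and Mirg, by 3.94, 1.65 and 1.53-fold, and the abundant Meg3 and Dlk1 lay at ratios of 0.802 and 0.715.

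Cartilage and bone genes turned with the choice of nuclei. In all members 6 of 13 were lower and 3 higher, with Acan 9.85-fold, Col2a1 4.55-fold and Runx2 2.05-fold lower. Without the clusters led by another type 5 of 6 were higher and none lower, with Sox5 at 7.1-fold and Runx2 at 2.57-fold higher. The list thus changed direction when those clusters, among them the WT cluster of 133 nuclei led by cartilage genes, were left out.

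Peaks of open chromatin were called by the authors in each library, and a KO peak was compared with a WT peak where they overlapped by at least 50% of each. This held for 54064 peaks, 87.4% of the KO peaks and 59.2% of the WT peaks. The unmatched peaks held 3.70% of KO and 17.3% of WT counts and were not compared. Of 33471 matched peaks with at least 50 counts, 3344 were higher in KO members (9.99%) and 1129 lower (3.37%), with a median log2 ratio of 0.15. Centred on that median, which by construction brings both directions closer, the split was 2010 higher and 1933 lower. In the reduced set 2398 were higher and 676 lower. KO members held 1722599 peak counts against 6754267 in the WT, and small differences in single peaks were not detectable at this depth.

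Chromatin went with RNA for a minority of genes. Peak counts were summed over each gene and its promoter for 10028 genes, of which 9.26% were higher and 1.97% lower. Among 965 genes with higher RNA, 158 (16.4%) had higher peak counts, and among 1478 with lower RNA, 59 (3.99%) had lower peak counts and 101 (6.83%) had higher ones. At the promoters of named genes, none of 52 peaks of genes with lower RNA was higher and 10 were lower. Of 43 peaks of genes with higher RNA 7 were higher and 1 was lower. Of 131 peaks of genes without a call 15 were higher and 1 lower.

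The lower promoters belonged to some of the genes with the largest differences in RNA. The Apbb1ip promoter (chr2:22773913-22774685) held 3 counts in KO and 141 in WT members, 12.0-fold lower after scaling to the sums (2.71 to 169). The Mfap5 promoter (chr6:122512662-122513812) held 8 and 158 counts, 5.04-fold lower (1.89 to 18.9). Promoters of Wif1, Bmp2, Nr4a2, Pdlim1 and Tagln2 were 3.39, 2.77, 2.30, 1.95 and 1.90-fold lower. Both promoters of Creb5 were lower by little more than the smallest fold called, with 48 against 299 counts (1.59-fold, 1.03 to 2.56) and 66 against 409 (1.58-fold, 1.09 to 2.36). Without the clusters led by another type the promoters of Wif1 and Tagln2 and the first of Creb5, at a ratio of 0.698 (0.382 to 1.20), were not called, and the other promoters named here were still lower. Outside promoters, a peak upstream of Fbn1 held 14 against 220 counts (4.01-fold lower), a peak upstream of Cd44 21 against 317 (3.85-fold) and a peak downstream of Sema3c 18 against 202 (2.86-fold). In nuclei outside the members, with peak counts scaled as for CPM, these peaks were lower in the KO as well. The Fbn1 peak stood there at 4.11 against 12.2, that of Cd44 at 12.6 against 29.2 and that of Sema3c at 6.57 against 9.41. Whether the differences in single peaks are particular to mesenchymal nuclei was not tested.

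Among genes with higher RNA, promoters of Sfrp1, Bnip3, Zbtb16 and Cdh11 were 1.79, 1.66, 1.55 and 1.51-fold higher. The Sfrp1 promoter held 62 against 136 counts and the Zbtb16 promoter 105 against 265, which are larger shares of the KO sum than of the WT sum. An intron of Il1rapl1 held 170 against 265 counts, 2.52-fold higher. In nuclei outside the members, scaled as above, that peak was also higher in the KO, at 80.2 against 25.1. The Bnip3 promoter stood there at 64.0 against 50.9 and the Zbtb16 promoter at 38.4 against 37.0. The promoters of Sfrp1, at 9.94 against 14.7, and Cdh11, at 13.3 against 19.2, went the other way. The peak with the largest deficit, chr1:24612283-24613190 (nearest gene Col19a1), held 0 KO and 1038 WT counts. It was also lower in KO nuclei outside the members, at 2.63 against 116 on the same scale, and in endothelial nuclei, at 11.4 against 167. This stretch of chromosome 1 is known to resemble mitochondrial DNA, and mitochondrial UMIs were also fewer in KO members, as given above.

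The AP-1 motif was more frequent in lower peaks than in others. AP-1 is a dimer of Jun and Fos proteins that opens enhancers in stimulated fibroblasts, and its site was searched as TGANTCA on both strands, which this palindrome reads alike. Outside promoters the motif stood in 43.6% of 727 lower peaks (40.0 to 47.3), in 26.4% of 16135 peaks without a call and in 21.1% of 2117 higher peaks (19.4 to 22.9), against 26.5% of all 18979. At promoters it stood in 18.4% of 402 lower peaks and 12.7% of all 14492. Centred calls gave 40.3% of 1131 lower and 20.5% of higher peaks. In the reduced set the share was 35.3% of 337 lower peaks (30.2 to 40.7) against 26.6% of those without a call. Muscle nuclei of the same libraries (981 KO and 1563 WT) also had a larger share in lower peaks, 33.9% of 937 (30.9 to 37.1) against 26.2% of all, and endothelial nuclei gave 31.9% of 47 (19.1 to 47.1) against 27.2%. A larger share in lower peaks was thus not particular to mesenchymal nuclei, and in the reduced set it was close to that of muscle nuclei.

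Other motifs, searched in the same way outside promoters, differed by less in all members, but not in the reduced set. The NFI site TTGGCA stood in 52.3% against 47.1%, the E-box CAGCTG in 59.6% against 55.4%, CAGATG in 60.9% against 58.4%, the RUNX site TGTGGT in 49.1% against 48.8% and the TEAD site CATTCC in 43.9% against 45.1%. The SOX site ATTGTT was less frequent in lower peaks, at 27.4% against 31.4%. The CArG box of SRF was rare, at 4.95% against 4.44%. Without the clusters led by another type, CAGCTG stood in 71.2% of lower peaks (66.1 to 76.0) against 57.01% of all, a wider gap than that of AP-1, at 35.3% against 26.4%. A match is a string of letters in a peak and does not show binding.

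**Figure D5:**
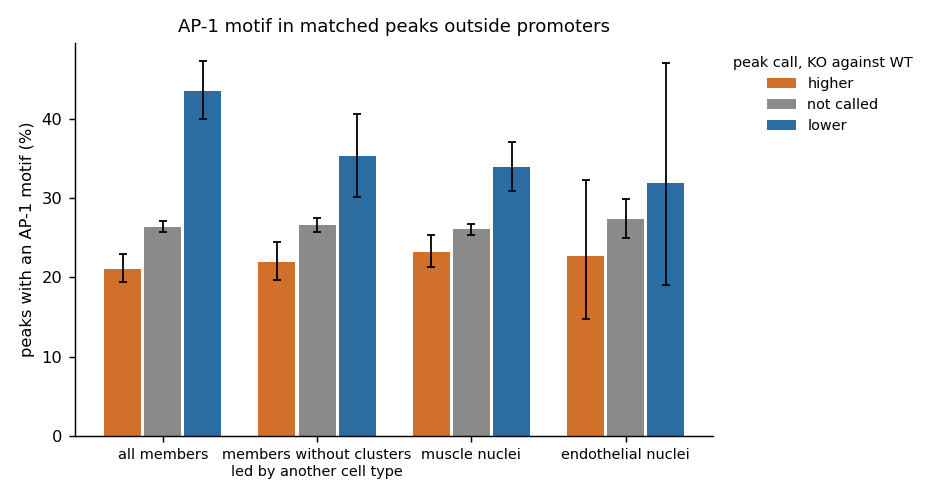
Share of peaks outside promoters that hold TGANTCA (percent, with exact 95% intervals), by call, in all mesenchymal members, in members without the clusters led by another cell type, in muscle nuclei and in endothelial nuclei. In all members the share is 43.6% of lower peaks and 21.1% of higher peaks, and endothelial nuclei have only 47 lower peaks and a wide interval.

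Stretches of 4 peaks that were lower in KO members, near genes whose RNA was lower as well, are shown because they hold the motif. The Creb5 peak shown is the one not called in the reduced set. Other lower peaks named above, at Apbb1ip, Wif1, Bmp2, Nr4a2, Tagln2, Fbn1 and Cd44, hold no match, and the second Creb5 promoter holds 1. The 4 peaks are thus examples and do not give the share of such peaks with the motif. The sequences are of the mouse genome (GRCm38), plus strand, and capitals mark TGANTCA. They lie in or next to the Mfap5 promoter (chr6:122513096-122513222), downstream of Sema3c (chr5:17753663-17753789), and at the promoters of Pdlim1 (chr19:40271109-40271202) and Creb5 (chr6:53286974-53287100).
Mfap5: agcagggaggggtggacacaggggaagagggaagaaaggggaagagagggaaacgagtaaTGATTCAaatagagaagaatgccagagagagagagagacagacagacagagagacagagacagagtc
Sema3c: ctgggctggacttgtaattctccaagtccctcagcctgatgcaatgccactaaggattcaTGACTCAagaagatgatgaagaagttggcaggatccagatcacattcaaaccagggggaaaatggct
Pdlim1: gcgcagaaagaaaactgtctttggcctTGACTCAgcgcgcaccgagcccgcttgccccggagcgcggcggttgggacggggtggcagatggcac
Creb5: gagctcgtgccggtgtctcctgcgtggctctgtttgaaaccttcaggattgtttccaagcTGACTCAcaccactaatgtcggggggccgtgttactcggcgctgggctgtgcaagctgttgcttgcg
Each stretch holds 1 match. Pdlim1 and Creb5 carry TGACTCA, the form that Jun and Fos dimers bind best, as does the Sema3c peak, and Mfap5 carries TGATTCA. RNA of these 4 genes was 4.24-fold (Mfap5), 2.10-fold (Sema3c), 9.45-fold (Pdlim1) and 4.09-fold (Creb5) lower in KO members.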

How the data were processed

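Per the file headers and labels, the authors made raw UMI counts per gene and raw counts per peak with Cell Ranger ARC 2.0.0 (mm10) and deposited them as 1 matrix for each of 5 libraries. Nuclei with 400 to 25000 UMIs, under 10% mitochondrial UMIs and under 70000 peak counts were kept. No doublet caller was run, and the number of KO nuclei that the study states is larger than the number of barcodes in the matrix. Counts of members were summed by library and scaled to CPM. Ratios have exact conditional binomial 95% intervals (peak counts divided by 2, as a fragment gives a cut at each end). Calls needed 1.5-fold. Members and gene lists were chosen with earlier results of these data known. Named genes were the 15 highest and 15 lowest ratios among genes with at least 100 UMIs whose level was above that of other nuclei of the library where they were higher, without mitochondrial, ribosomal, Gm and Rik genes, plus, from each list, the 4 deepest and the 2 extreme members. Other list members were named after their values were seen. Endothelial, tenocyte and cycling nuclei served as comparison. Clusters used Scanpy 1.11.5 (2000 variable genes, 20 components, 15 neighbours, Leiden resolution 0.5). Intervals used SciPy 1.17.1. Promoters lie within 1000 bases of a start. Calling was tested on simulated data.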

Additional observations from a re-analysis of the deposited data

How the results depend on the processing

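Each group was 1 library, so replicates could not be left out. No paired analysis was possible because no groups share 2 replicate numbers. Thinned to 2000 UMIs, the rule took 11.4% of KO and 13.8% of WT nuclei, without nuclei holding markers of another cell type 13.3% and 15.6%, and without the clusters led by another type 15.2% and 16.5%. Genes called higher numbered 538 after thinning, 605 with at least 200 UMIs, 1854 with no minimum and 550 at 2-fold. Genes called lower numbered 791 after thinning, 833 with at least 200 UMIs and 588 at 2-fold. Peaks called higher numbered 2162 without other cell type markers, 2010 centred on the median, 1053 with at least 200 counts and 1938 at 2-fold. Peaks called lower numbered 642 without other cell type markers, 676 without the clusters led by another type, 1933 centred and 366 with at least 200 counts. The log2 ratio of Sox5 turned to 0.43 without other cell type markers and to 2.83 without the clusters, that of Runx2 to 1.36 without the clusters, and that of Mybpc1 to -0.43 in nuclei of 2000 to 10000 UMIs and to -0.74 without the clusters. Fewer nuclei or counts were tested in the thinned and stricter settings, and the cause of the other shifts was not tested. Of 126 named genes called, 122 kept their call under centring, 118 within bins of gene length, 88 without other cell type markers (6 lost, 1 turned), 85 without the clusters (10 lost, 3 turned) and 65 after thinning (8 lost). The rest had too few UMIs for the test in those last 3 settings. The chromatin of KO members, at a median of 1643.5 peak counts a nucleus, limits the peak comparison.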
